A study of Mus musculus with 3 samples.

Results

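The glycogen metabolism genes examined were 7 genes that build, break down or regulate glycogen, taken by symbol from the deposited table, namely Pygl, Pygb, Pygm, Gys1, Gbe1, Ugp2 and Ppp1r3c. All 7 had a value, each from 1 probe set that carried no other gene symbol, out of 19938 named genes. They were chosen by pathway with the levels of Pygl and other genes in these arrays already known, so their levels and differences below are a description. RNA came from 3 cultured lines of mouse fibroblasts positive for FSP1, the product of S100a4, isolated from the forestomach, the squamous-lined part of the rodent stomach, and each line was read on 1 Affymetrix Mouse Gene 1.0 ST array. The groups were a wild-type line from normal forestomach, a line with a conditional knockout (cKO) of Tgfbr2 from a forestomach squamous cell carcinoma, and a line with conditional knockouts of Tgfbr2 and Smad4 from normal forestomach. Tgfbr2 encodes the type II TGF-beta receptor and Smad4 the common SMAD of the TGF-beta and BMP pathways. The mice were of mixed C57BL6 and BALBc background and of either sex. Strain and sex are not assigned to a line in the labels, which give no age, do not name the Cre driver and do not say whether a line was a clone or a pool of animals. All 3 lines were grown in medium with 10% fetal bovine serum to subconfluency and used at passages 4 to 6. Because the Tgfbr2 cKO line came from a carcinoma and both other lines did not, genotype and tissue of origin cannot be told apart in its comparison with either.

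Glycogen is the branched storage polymer of glucose. Ugp2 makes the UDP-glucose that glycogen synthase, Gys1 in most tissues, adds to the chain, and the branching enzyme Gbe1 makes the branch points. Glycogen phosphorylase releases glucose from the polymer, and mammals carry a liver, a brain and a muscle form of it, encoded by Pygl, Pygb and Pygm. Phosphorylase kinase activates phosphorylase, whereas protein phosphatase targeted to glycogen by subunits such as Ppp1r3c, also called PTG, activates the synthase and inactivates phosphorylase.

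Values are log2 signals, and where 3 levels follow each other they stand in the order wild type, Tgfbr2 cKO, Tgfbr2/Smad4 cKO. On this scale a difference of 1 is a 2-fold difference, and with 1 array per line no difference has a replicate check or a p-value. How precise any value is depends on this number of arrays. The 3 array medians were all 6.63 and differed by at most 0.00413, and a gene was counted in comparisons across genes if it reached 6.63 in at least 1 array, as 11808 genes and 5 of the 7 members did. Many values were exactly equal between arrays, in 32.7% of these 11808 genes for all 3 arrays, so an equal value does not show that a small difference was absent. The targeted genes did not separate the lines, with Tgfbr2 at 10.25, 10.25 and 10.29 and Smad4 at 11.06, 11.06 and 11.04, and since each value summarises probes along the whole transcript they check nothing about the labels. Xist and the Y-linked genes placed the Tgfbr2/Smad4 cKO array apart, with Xist at 5.33, 5.35 and 9.44 and Eif2s3y at 10.12, 10.00 and 5.01, so sex pattern and genotype cannot be told apart in comparisons with that array. All 10 fibroblast markers examined reached 6.63 in every array, with levels from 9.73 to 14.5. In the Tgfbr2/Smad4 cKO array 9 of the 10 were above wild type, as 31.1% of the 11808 genes were. They were led by Pdgfra at 9.73, 10.14 and 11.13 and Lum at 10.14, 10.21 and 11.35. S100a4 was the 1 below wild type, at 13.18, 13.16 and 12.71.

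Among the genes of glycogen breakdown, Pygl, the liver form of glycogen phosphorylase, was the member that separated the lines. Its level was 9.35 in the wild-type array, 9.97 in the Tgfbr2 cKO array and 6.85 in the Tgfbr2/Smad4 cKO array. It was thus highest in the carcinoma-derived Tgfbr2 cKO line and lowest in the line that also carried the Smad4 knockout, where it lay 0.21 above the array median. The difference from wild type was -2.50 in the Tgfbr2/Smad4 cKO array, a 5.67-fold lower level, and placed Pygl at rank 13 from the lowest of 11808 genes. Between the Tgfbr2/Smad4 cKO and Tgfbr2 cKO arrays it was -3.13, an 8.72-fold lower level, at rank 7 from the lowest. These comparisons share the Tgfbr2/Smad4 cKO array, so they are not independent. In the Tgfbr2 cKO array Pygl was 0.62 above wild type, a 1.54-fold higher level at rank 22 from the highest. The table carries no detection calls, so whether the level of 6.85 was above background is not known. Fewer cells expressing a gene and less RNA per cell cannot be told apart in such bulk values.

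The other phosphorylase genes had no such pattern. Pygb, the brain form, which is also widespread in other tissues, was at 10.68, 10.60 and 10.49. It was highest in wild type, and its differences from wild type were -0.08 and -0.20, against 0.62 and -2.50 for Pygl. Pygm, the muscle form, was at 6.05, 6.05 and 5.95, below the median signal in each array. The liver form was therefore the phosphorylase gene with a difference of at least 2-fold among the 3, and the level of Pygm was too low to count in comparisons across genes.

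**Figure D1:**
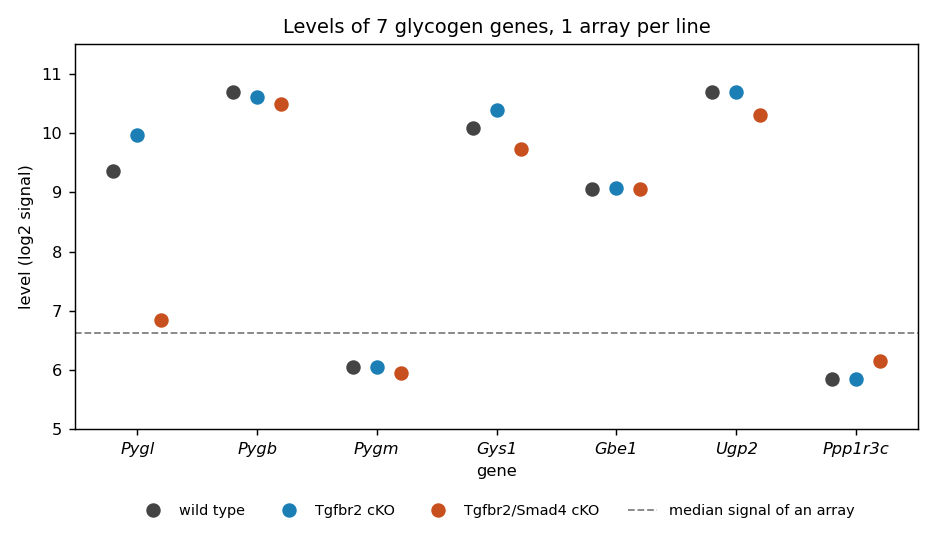
Level (log2 signal, vertical axis) of each of the 7 genes in the 3 arrays, 1 point per array and no error bars because each line had 1 array; the dashed line is the median signal of an array, 6.63, and points of different genes come from different probes and are not comparable with each other. Pygl lies at 9.35, 9.97 and 6.85, Gys1 is spread over 0.66, and Pygm and Ppp1r3c lie below the dashed line in every array.

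Among the genes of glycogen synthesis, Gys1, which encodes the glycogen synthase of muscle and most other tissues, was at 10.08 in the wild-type array, 10.38 in the Tgfbr2 cKO array and 9.72 in the Tgfbr2/Smad4 cKO array. The arrays stood in the same order as for Pygl, over a smaller span of 0.66 on the log2 scale. Gys1 was 0.31 above wild type in the Tgfbr2 cKO array, at rank 126 from the highest, and differed from wild type by -0.35 in the Tgfbr2/Smad4 cKO array. Between the knockout arrays its difference was -0.66, a 1.58-fold lower level in the Tgfbr2/Smad4 cKO array, which also differs from the other in tissue of origin. Pygl and Gys1 were the 2 of 7 members whose arrays stood in this order, as they did in 12.4% of the 11808 genes.

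Ugp2, the UDP-glucose pyrophosphorylase gene, was at 10.69, 10.69 and 10.30. It was equal in the first 2 arrays and 1.31-fold lower in the third, a difference of -0.38 from either. Gbe1, the branching enzyme gene, was at 9.05, 9.08 and 9.05. The wild-type and Tgfbr2/Smad4 cKO values were exactly equal, and the Tgfbr2 cKO value was 0.02 higher, a sign that turned between the knockout arrays with another normalization, where the highest difference of Tgfbr2/Smad4 cKO minus Tgfbr2 cKO was 0.02 in place of -0.02. Gbe1 thus had the smallest span of the 7 genes.

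The regulator Ppp1r3c was at 5.85, 5.85 and 6.16. It was the 1 member of the 7 that was higher in the Tgfbr2/Smad4 cKO array than in both others, by 0.30, but every value was below the median signal, and with 32 added to each linear signal the difference was 0.20.

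Counted over the members, the Tgfbr2 cKO array had 3 of 7 above wild type, 1 below and 3 exactly equal, with a median difference of 0, which was also the median over all 11808 genes. None of the 5 members counted differed 2-fold there, in either direction, as 0.0339% of all genes did. In the Tgfbr2/Smad4 cKO array 5 of 7 were below wild type, 1 above and 1 equal, with a median of -0.20 against 0 over all genes. Only Pygl was past 2-fold, on the lower side, where 2.18% of all genes were, and 32.2% of all genes were below wild type at any size. Against the Tgfbr2 cKO array, 6 of 7 were lower in the Tgfbr2/Smad4 cKO array and 1 higher, where 33.7% of all genes were lower, 30.2% higher and 36.1% equal. The median was -0.12 against 0 over all genes, and Pygl was again the 1 past 2-fold, with 2.25% of all genes at least 2-fold lower. Because of how the genes were chosen, nothing is read from these counts beyond the values themselves.

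**Figure D2:**
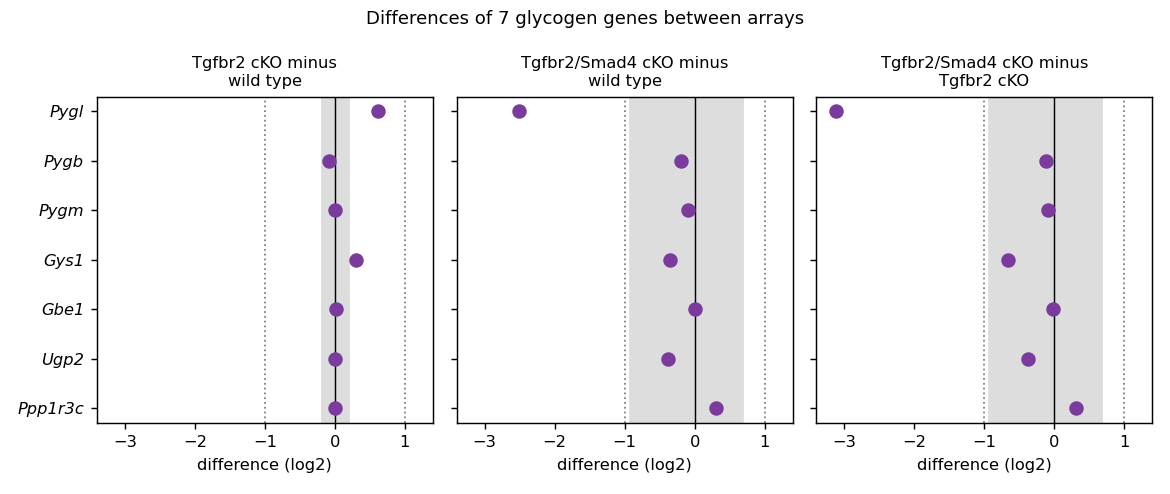
Difference in log2 signal (horizontal axis) of each of the 7 genes in the 3 comparisons, 1 point per gene; grey bands span the central 95% of 11808 genes and dotted lines mark 2-fold. Pygl lies outside the band in all 3 panels, at 0.62, -2.50 and -3.13, Gys1 lies outside it in the Tgfbr2 cKO panel at 0.31, and the other points lie inside.

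Promoter sequences are shown for 4 of the genes: Pygl and Gys1, whose arrays stood in the same order, Pygb as the phosphorylase gene that differed little, and Ppp1r3c, which was higher in the Tgfbr2/Smad4 cKO array. Each runs 5′ to 3′ from 250 bases before to 50 bases after the annotated start, from RefSeq, build GRCm38.p6. Capitals mark the core letters of the hypoxia response element, ACGTG or GCGTG, on either strand, so that a match on the opposite strand reads CACGT or CACGC.
Pygl, chr12:70227634-70227933, minus strand: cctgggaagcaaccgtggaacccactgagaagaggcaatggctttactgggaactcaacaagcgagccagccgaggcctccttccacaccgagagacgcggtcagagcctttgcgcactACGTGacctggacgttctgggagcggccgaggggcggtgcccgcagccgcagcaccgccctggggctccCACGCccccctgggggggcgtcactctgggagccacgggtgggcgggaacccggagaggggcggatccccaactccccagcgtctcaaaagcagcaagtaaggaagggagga
Pygb, chr2:150786546-150786845, plus strand: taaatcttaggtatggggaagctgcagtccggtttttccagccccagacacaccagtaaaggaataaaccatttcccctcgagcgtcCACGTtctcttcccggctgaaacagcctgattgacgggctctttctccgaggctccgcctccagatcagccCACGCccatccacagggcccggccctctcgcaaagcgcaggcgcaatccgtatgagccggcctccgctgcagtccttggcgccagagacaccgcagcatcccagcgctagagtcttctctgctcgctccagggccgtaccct
Gys1, chr7:45434589-45434888, plus strand: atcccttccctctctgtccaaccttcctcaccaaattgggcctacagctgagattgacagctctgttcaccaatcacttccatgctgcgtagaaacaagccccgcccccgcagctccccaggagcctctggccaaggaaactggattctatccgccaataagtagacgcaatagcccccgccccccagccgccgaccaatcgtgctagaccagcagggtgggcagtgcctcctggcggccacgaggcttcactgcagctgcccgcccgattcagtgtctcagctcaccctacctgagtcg
Ppp1r3c, chr19:36736555-36736854, minus strand: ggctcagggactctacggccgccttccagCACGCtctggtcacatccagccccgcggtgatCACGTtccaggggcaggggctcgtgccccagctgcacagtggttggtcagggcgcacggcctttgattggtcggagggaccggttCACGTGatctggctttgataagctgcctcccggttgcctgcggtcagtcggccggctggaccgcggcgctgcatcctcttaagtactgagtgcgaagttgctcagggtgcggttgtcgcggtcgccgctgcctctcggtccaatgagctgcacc
The Pygl window held ACGTG starting 131 bases before the start and, on the opposite strand, GCGTG at 62 bases before it. The Pygb window held the same pair of motifs, both on the opposite strand, at 163 and 92 bases before its start. Ppp1r3c held 3 ACGTG matches, of which those at 104 and 103 bases overlap as a palindrome, and 1 GCGTG match, while no match lay in the windows of Gys1 or Gbe1. In all, 5 of the 8 member windows, of which Ugp2 had 2, held ACGTG and 5 held GCGTG, the same 5 genes in each case, whereas 19.6% and 32.4% of 32851 RefSeq promoter windows held them. At least 1 of the 2 forms was in 5 of the 8 member windows and in 43.8% of all windows. The member windows held 54.3% to 76.0% G and C, above the median of 52.7% over all windows, and the part of base composition in these counts was not tested. The SMAD-binding palindrome GTCTAGAC, the full cAMP response element TGACGTCA and the TATA box TATAAA were in none of the 8 member windows and in 0.213%, 1.79% and 13.6% of all windows. Both hypoxia motifs lay in the windows of Pygl, Pygb, Pygm and Ppp1r3c and in 1 window of Ugp2. Their part in the levels of these genes was not tested.

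The wider pathway was examined through 43 further genes for synthesis, breakdown, phosphorylase kinase, phosphatase targeting, glycogen quality, upstream kinases and glucose supply. Of these, 39 had a value and 33 reached 6.63, and the other 4 were not analysed here. In the Tgfbr2 cKO array 7 of 33 were above wild type, 6 below and 20 exactly equal, where 25.8%, 19.0% and 55.1% of all genes were. There 0 of the 33 differed by 1.5-fold, against 0.373% of all genes. In the Tgfbr2/Smad4 cKO array 8 were above wild type, 14 below and 11 equal, where 31.1%, 32.2% and 36.7% of all genes were. In that array 1 was at least 1.5-fold higher and 3 lower, 12.1% of the 33 against 8.44% of all genes. Between the knockout arrays 1 was at least 1.5-fold higher and 4 lower, 15.2% against 9.01%. None of the 33 reached 2-fold in any comparison.

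In the synthesis list, Pgm2l1, which makes a sugar bisphosphate cofactor of phosphoglucomutase, was at 7.66, 7.66 and 7.01, 1.56-fold lower in the last than in either other. With Gys1 and Ugp2 included, 5 of the 7 synthesis genes that reached 6.63 were below wild type in the Tgfbr2/Smad4 cKO array and 2 equal, with a median of -0.26. Of all genes, 32.2% were below wild type there and 36.7% equal. The 5 lower genes were Gys1, Ugp2, Pgm1, Pgm2 and Pgm2l1, and the 2 equal ones were Gbe1 and Gyg. Pgm1 and Pgm2, with differences of -0.15 and -0.26, were named after their values were seen. Gyg, for the glycogenin that primes the chain, was at 11.20 in all 3 arrays, and Gys2, for the liver form of the synthase, was at 4.77 in all 3, both named after their values were seen.

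A lysosomal enzyme of breakdown differed in the other direction from Pygl. Gaa, the acid alpha-glucosidase that degrades glycogen in lysosomes, was at 10.93, 10.92 and 11.57, so that it was 1.56-fold higher in the Tgfbr2/Smad4 cKO array than in wild type and 1.57-fold higher than in the Tgfbr2 cKO array. Stbd1, a membrane-anchored protein that binds glycogen, was at 8.38, 8.42 and 7.82. Its difference between the knockout arrays was -0.60, a 1.52-fold lower level in the Tgfbr2/Smad4 cKO array, where Gaa was higher.

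Phosphorylase kinase genes were level or higher in the Tgfbr2/Smad4 cKO array, with 3 of 4 above wild type, 1 equal and a median of 0.18, where 31.1% of all genes were above wild type and 36.7% equal, and 0 of the 4 reached 1.5-fold. Phkg2, a catalytic subunit, had the largest difference, with levels of 8.31, 8.57 and 8.79, and it was above wild type in both knockout arrays, by 0.26 and 0.49. Among phosphatase subunits, 5 of the 8 that reached 6.63 were equal in wild type and Tgfbr2/Smad4 cKO, as 36.7% of all genes were. Ppp1r3d, which like Ppp1r3c targets the phosphatase to glycogen, was at 8.23, 8.23 and 8.72, a difference of 0.50. Of the 7 upstream kinase genes the largest difference was that of Gsk3a, a kinase that inhibits glycogen synthase, at 9.96, 9.96 and 9.66.

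Of the 6 glucose supply genes that reached 6.63, 2 had the order of arrays seen for Pygl and Gys1, which 12.4% of all genes had, and these were Slc2a1 and Hk2, the genes of the list with the largest differences. Slc2a1, which encodes the glucose transporter GLUT1, was at 12.21, 12.38 and 11.48. Hk2, a hexokinase that phosphorylates incoming glucose, was at 10.71, 10.88 and 9.92. Both were highest in the Tgfbr2 cKO array, by 0.17 each over wild type, and lowest in the Tgfbr2/Smad4 cKO array, with differences from wild type of -0.74 and -0.79. The other hexokinase gene with a value, Hk1, was at 11.63, 11.66 and 11.66, and was named after its values were seen. Of the 6 genes, 4 were below wild type in the Tgfbr2/Smad4 cKO array and 2 above, with a median of -0.14, where 32.2% of all genes were below and 31.1% above.

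**Figure D3:**
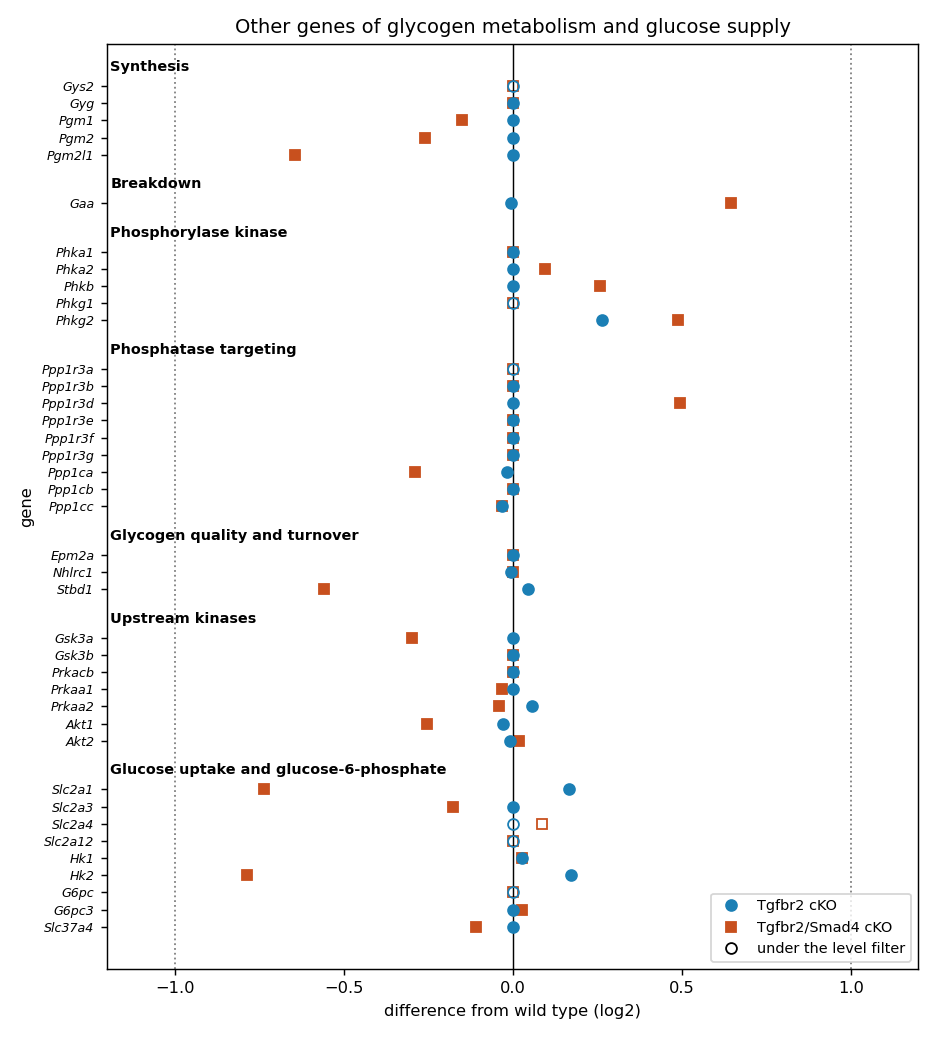
Difference in log2 signal from wild type (horizontal axis) of 39 further genes of glycogen metabolism and glucose supply in the Tgfbr2 cKO array (circles) and the Tgfbr2/Smad4 cKO array (squares), 1 point per array, with open symbols for genes under 6.63 in every array and dotted lines at 2-fold. No point reaches 2-fold; Hk2, Slc2a1 and Pgm2l1 lie farthest to the left at -0.79, -0.74 and -0.64 and Gaa farthest to the right at 0.64, all in the Tgfbr2/Smad4 cKO array.

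Pygl was the member with a span of at least 2-fold, so the genes with the nearest pattern were sought for it. Likeness was the distance between the 3 log2 values, each gene centred on its own mean, over 3 arrays and 11338 genes, and with so few arrays many genes can lie close. The nearest was Frzb, a secreted Wnt antagonist, at a distance of 0.062, with levels of 8.93, 9.53 and 6.34. Next came the cytokine gene Il6 at 0.16, with levels of 9.17, 9.88 and 6.89, and the skeletal actin gene Acta1 at 0.30. The smooth muscle actin gene Actg2 and the lactate transporter gene Slc16a3 followed, at 0.38 and 0.39. None of these 5 belongs to the glycogen lists, and Frzb and Il6 were the ones that, like Pygl, were at least 1.5-fold higher in the Tgfbr2 cKO array than in wild type, with differences of 0.60 and 0.71.

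**Figure D4:**
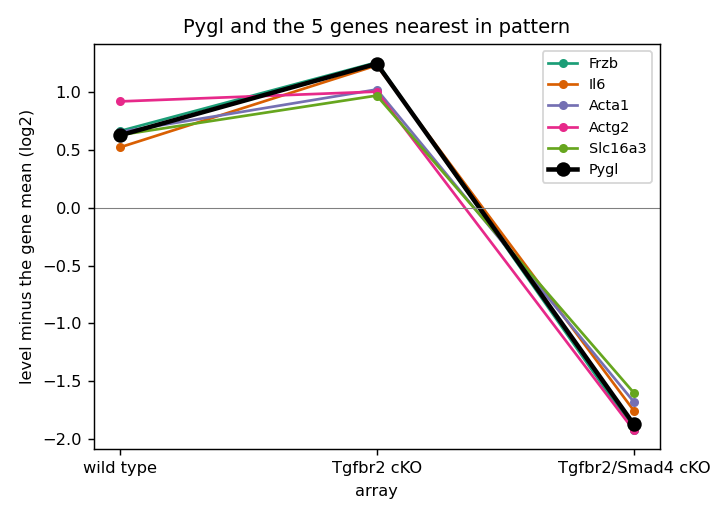
Log2 signal minus the mean of each gene over the 3 arrays (vertical axis) for Pygl (black) and the 5 genes nearest to it, 1 point per array (horizontal axis), with lines joining the points of a gene. All 6 genes are lowest in the Tgfbr2/Smad4 cKO array, and the line of Frzb lies closest to that of Pygl, at a distance of 0.062.

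Markers of other cells were set beside the Pygl values. Hepatocyte markers, relevant to the liver form, were equal in all 3 arrays and below the median signal in 5 of 5 with a value. Leukocyte markers were equal in all 3 arrays for 5 of 7, including Ptprc at 5.23, while Lyz2, at 8.70, 9.52 and 7.75, and Cd68, at 7.01, 7.51 and 6.76, stood in the same order as Pygl. The summed linear signal of the 7 leukocyte markers was 733, 1103 and 511, and only Lyz2 and Cd68 made it differ between arrays. The summed signal of 6 smooth muscle markers was 73249, 75763 and 41655, with 4 of 6 at least 2-fold lower in the Tgfbr2/Smad4 cKO array than in wild type, as 2.18% of all genes were. Acta2, at 14.66, 14.70 and 14.46, and Tagln, at 14.10, 14.09 and 13.73, were the ones that were not. The sum of 6 mesothelial markers was 2249, 1695 and 802, with 3 of 5 that reached 6.63 at least 2-fold lower, against the same 2.18%. That of 8 epithelial markers was 1057, 1161 and 655, and Krt19 was the only marker of the 8 above wild type in the Tgfbr2 cKO array. Krt5, Krt14 and Epcam were below the median signal and equal in all 3 arrays. The 3 epithelial markers that reached 6.63 were all below wild type in the Tgfbr2/Smad4 cKO array, as 32.2% of all genes were. Krt19, which is also among the mesothelial markers, was at 8.82, 9.25 and 6.93, in the same order as Pygl. Krt8, at 6.96, 6.69 and 6.66, and Krt18, at 7.10, 6.80 and 6.49, were instead highest in wild type. Of the 5 mesothelial markers that reached 6.63, 4 were below wild type in the Tgfbr2 cKO array and 1, Krt19, above. Of all genes, 19.0% were below wild type in that array and 25.8% above. Skeletal muscle markers, relevant to Pygm, ranged from 5.28 to 7.90 with 0 of 6 past 2-fold, and among the astrocyte and neuron markers, relevant to Pygb, 1 of 5 reached 6.63. The part of any of these cells in the Pygl values was not tested.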

How the data were processed

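RNA from 3 mouse forestomach fibroblast lines was read on Affymetrix Mouse Gene 1.0 ST arrays, 1 per line, with transcript-level values per the labels' protocols. The deposited values were read as log2 signals from their range; for the authors' software, background correction, normalization and build, the sources used here give nothing. They were used as deposited. Of 35556 probe sets, 21789 carried 1 gene symbol in the platform annotation, 1621 several and 12146 were not listed; symbols were updated with a RefSeq table of GRCm38.p6 for 21698 and kept for 91, and probe sets of a gene were averaged on the log2 scale. A gene was counted in comparisons if its highest value reached 6.63, the median of all values. A difference of 2-fold was the size rule, and no test was possible with 1 array per group. Named pathway genes were those at least 1.5-fold different in any comparison, or the most different of a list without one; for members spanning 2-fold, the 5 genes nearest in pattern were named. The members and lists were chosen with earlier results of these data known. Protein sequences were not used here. Counting was tested on simulated data. Alternatives were median centring, quantile and cyclic loess normalization, an offset of 32, a level filter at the 75th percentile or none, the brightest probe set of a gene, and size rules of 1.5-fold and 3-fold. Analyses used Python 3.11.15, numpy 2.4.6, pandas 2.3.3, matplotlib 3.10.9, R 4.3.3 and limma 3.58.1.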

Additional observations from a re-analysis of the deposited data

How the results depend on the processing

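With a size rule of 1.5-fold in place of 2-fold, the members past it numbered 1 in place of 0 for Tgfbr2 cKO minus wild type (Pygl) and 2 in place of 1 for Tgfbr2/Smad4 cKO minus Tgfbr2 cKO (Pygl and Gys1); this follows from the rule itself, under which 0.373% and 9.01% of all genes passed. Under the other alternatives, and for Tgfbr2/Smad4 cKO minus wild type under all of them, the counts were those reported. Each of the 105 member differences recomputed under 5 alternatives moved from its reported value by less than the SD of the differences over all genes (0.095, 0.39 and 0.40 in the 3 comparisons), although the sign of Gbe1 between the knockout arrays turned, within -0.03 to 0.02. This outcome was largely fixed by the setting. Each member had 1 probe set, so the brightest probe set left its values as they were. Median centring moved none by more than 0.00413. In the comparisons with the Tgfbr2/Smad4 cKO array the SD exceeded all member differences except those of Pygl and, between the knockout arrays, Gys1. Pygl ranged from 0.60 to 0.62, from -2.51 to -2.22 and from -3.13 to -2.82. The values of Pygm and Ppp1r3c lay below the median signal, which limits what they show. No paired analysis was possible because each group had 1 array.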
